A study of Homo sapiens with 40 samples.

Results

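Reads on 10 genes for subunits of the SWI/SNF chromatin remodelling complexes were measured in single T47D cells: SMARCA4, SMARCA2, ARID1A, ARID1B, PBRM1, SMARCC1, SMARCC2, SMARCD1, SMARCB1 and SMARCE1. The genes were picked by symbol and make up 10 of the 60279 genes in the count tables. They were read in 33 of the 40 cells, those with at least 1000 genes, a library of at least 600000 reads on genes and spike-ins, at most 30% mitochondrial reads and at most 25% reads on ERCC spike-ins. T47D is an established human line of luminal breast cancer. All cells are labelled as passage 10 of this line, with no culture named, and were sorted for the surface proteins EpCAM and CD49f before being prepared with 1 of 3 full-length protocols. G&T is the RNA arm of genome and transcriptome sequencing, a non-commercial method, and 11 of its 13 cells were kept. Takara is the SMART-seq HT kit, with 11 of 13 cells kept. NEB is the NEBNext low-input kit, with 11 of 14 cells kept, and its cDNA went through more PCR cycles than that of the others. ERCC RNA was added at the same dilution in the 3 protocols. Cells of SMART-Seq3 were not analysed here. A protocol was sequenced as 1 run, no separate cultures are labelled within it, and it counted as 1 sample. Its cells do not replicate it, the effects of protocol and of run cannot be told apart, and the protocols were compared without a test.

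SWI/SNF complexes use the energy of ATP to slide or evict nucleosomes, which opens promoters and enhancers for transcription factors. Each complex holds 1 of the alternative ATPases SMARCA4 (BRG1) or SMARCA2 (BRM) on a shared core, and further subunits set its type: ARID1A or ARID1B mark the canonical BAF form, and PBRM1 marks the PBAF form. Several of these genes are mutated in cancers, and in breast epithelium the complexes take part in gene activation by the estrogen receptor.

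The 10 genes include 3 pairs of paralogues, whose products can replace or accompany each other in a complex. A read can be given to 1 paralogue only where the copies differ, so the longest stretch of coding sequence shared letter for letter by the canonical transcripts of each pair is shown (GENCODE 44 on GRCh38, read 5′ to 3′ along the transcript).
SMARCA4 and SMARCA2: gagaagctggagaagcagcagaagat
ARID1A and ARID1B: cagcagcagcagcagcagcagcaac
SMARCC1 and SMARCC2: ttcaatgaatggatgaatgagga
These stretches are 26, 25 and 23 bases long. They begin at base 1536 of the SMARCA4, base 4368 of the ARID1A and base 922 of the SMARCC1 transcript, and the shared ARID1A and ARID1B stretch is a CAG repeat. Over whole transcripts, untranslated parts included, the longest identical stretch was 26, 29 and 23 bases.

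The kept cells had 658154 to 1166633 reads on genes in G&T, while Takara cells had 818512 to 1287911 and NEB cells 624772 to 963816. NEB cells held fewer genes (4416 to 6719) than G&T (9541 to 12794) and Takara cells (10624 to 11855), and 5.66% to 18.9% of their library fell on ERCC spike-ins, against 1.37% to 2.75% in G&T and 0.538% to 1.33% in Takara. All 7 luminal markers checked (EPCAM, KRT8, KRT18, KRT19, GATA3, ESR1 and PGR) had reads in each protocol, with a summed level per cell of 3911 to 15560 CPM in G&T, 9947 to 26706 in Takara and 1746 to 6727 in NEB. Of 5 markers of other cell types, PTPRC, PECAM1, KRT5 and KRT14 were at 0 in Takara and NEB and had 1 to 12 reads in G&T, while COL1A1 stood at 10.8 to 12.6 CPM in the 3 protocols. The sum of the 5 did not pass 50.04 CPM in any kept cell. CPM here means counts per 1000000 reads on genes, and a pooled level sums the reads of the 11 kept cells of a protocol. The reads carry no molecular identifiers, so the 95% Poisson intervals given with pooled levels, like the exact binomial intervals of shares of cells, cover counting error only.

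The 10 genes together had 6244 reads in G&T, with 4697 in Takara and 5661 in NEB. Their summed pooled level was 657 CPM in G&T (641 to 674), with 401 in Takara (390 to 412) and 710 in NEB (692 to 729). Across cells the sum ran from 447 to 898 CPM in G&T (median 663), from 303 to 523 in Takara (median 419) and from 208 to 1135 in NEB (median 680). The ranges overlapped between all protocols, and the NEB cells were the most widely spread (SD 296 CPM, against 137 in G&T and 62.7 in Takara). The make-up of these reads differed between protocols. ARID1B and SMARCE1, a pair chosen after their values were seen, held 68.6% of the reads on the 10 genes in NEB, but 32.4% in Takara and 25.1% in G&T. In G&T the largest share belonged to SMARCC1 (21.8%), in Takara to SMARCE1 (25.7%) followed by SMARCA4 (21.1%), and in NEB to SMARCE1 (41.8%) followed by ARID1B (26.8%). In single cells the share of ARID1B and SMARCE1 ran from 26.2% (NEB cell D2) to 94.3% (B1) in NEB, from 24.9% to 51.0% in Takara and from 11.9% to 60.7% (H1) in G&T, so the ranges overlapped.

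**Figure D1:**
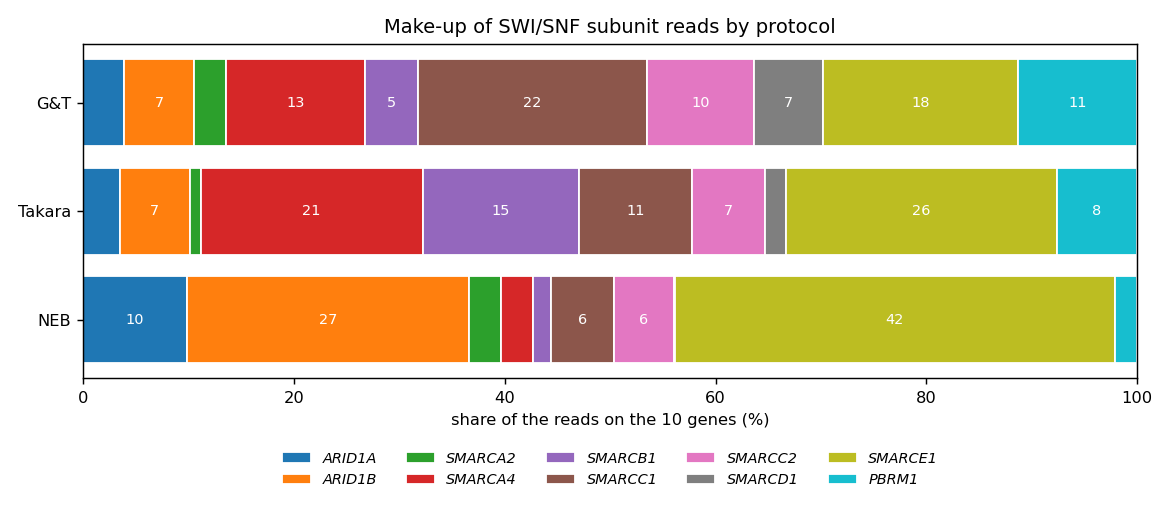
Share of each of the 10 genes, in percent, of the pooled reads on them in the 11 kept cells of G&T, Takara and NEB. The bars add up to 100% each, and the ARID1B and SMARCE1 segments fill 68.6% of the NEB bar against 32.4% in Takara and 25.1% in G&T.

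SMARCA4 (ENSG00000127616; GRCh38 chromosome 19, 10960932 to 11079426, forward strand) encodes the ATPase BRG1. In G&T cells its level had a lowest value of 18.7, a median of 92.9 and a highest of 154 CPM, and in Takara cells of 41.0, 94.5 and 120 CPM. In NEB cells the corresponding values were 0, 8.52 and 84.8 CPM, with reads in 9 of 11 cells (81.8%, 48.2% to 97.7%). G&T and Takara cells thus covered much the same range, while most NEB cells lay below it. Pooled, SMARCA4 reached 86.6 CPM in G&T (80.8 to 92.8), with 84.6 in Takara and 21.8 in NEB (18.7 to 25.3). G&T and Takara differed by 1.02-fold with a counting interval of 0.933 to 1.13, and Takara exceeded NEB by 3.88-fold (3.30 to 4.58). The mean over cells was 83.7 ± 29.9 CPM (SD, n = 11) in Takara and 21.4 ± 28.5 in NEB, a difference larger than either SD.

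SMARCA2 (ENSG00000080503; chromosome 9, 1980290 to 2193624, forward strand) encodes BRM, the alternative ATPase. It was the member with the fewest reads in Takara, where cells had 0, 2.42 and 11.3 CPM as lowest, median and highest values. G&T cells ran from 0 to 69.5 CPM with a median of 10.7. Only 4 NEB cells had any read (36.4%, 10.9% to 69.2%): C2, D1 and E1 at 68.7, 58.1 and 79.8 CPM, and D2 at 6.08. The pooled level, 19.8 CPM in G&T, with 4.10 in Takara and 21.2 in NEB (18.1 to 24.6), was therefore similar in G&T and NEB but spread over 9 cells in the former. G&T exceeded Takara by 4.83-fold (3.50 to 6.78), and the difference in cell means, 15.6 CPM, stayed under the G&T SD of 23.8. NEB exceeded Takara by 5.17-fold (3.735 to 7.29) when pooled, although the NEB median of 0 lay below the Takara median. The difference in cell means, -15.0 CPM for Takara minus NEB, was smaller in size than the NEB SD of 32.2.

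Reads of the ATPases per kilobase of merged exons were assigned to SMARCA4 at 84.3% in G&T, with 96.2% in Takara and 55.8% in NEB. With the longest transcript as length these shares were 84.2%, 96.2% and 55.7%, and the NEB share was 46.7% without G2 and 72.3% as a mean of single cells. In every Takara cell SMARCA4 held at least 85.7% of them. G&T cells ranged from 51.7% (A1) to 100%. NEB cells went to both ends: among the 10 cells with a read of either gene, 6 had SMARCA4 alone and E1 had SMARCA2 alone. Reads of both ATPases were seen in 9 G&T, 8 Takara and 3 NEB cells, and C1 of NEB had neither.

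ARID1A (ENSG00000117713; chromosome 1, 26693236 to 26782104, forward strand) and ARID1B (ENSG00000049618; chromosome 6, 156776020 to 157210779, forward strand) encode the large, mutually exclusive DNA-binding subunits of canonical BAF. For ARID1A the lowest, median and highest cells had 2.04, 24.3 and 57.7 CPM in G&T, and 0, 9.35 and 51.4 CPM in Takara. NEB cells reached higher, with 0, 65.6 and 192 CPM, although B1 and C2 had no read and D1 only 3. Takara cell G1 alone gave 40.1% of the ARID1A reads of that protocol. The pooled level was 25.5 CPM in G&T (22.4 to 28.9), with 13.8 in Takara (11.8 to 16.1) and 69.6 in NEB (63.9 to 75.6). Without Takara cell G1 the Takara level was 9.28 CPM, and the log2 ratio of G&T over Takara went from 0.84 to 1.37, past a doubling.

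ARID1B had reads in every kept cell of every protocol. Its lowest, median and highest values were 13.96, 39.8 and 92.7 CPM in G&T and 7.33, 22.0 and 41.7 CPM in Takara. In NEB they were 7.37 (B1), 177 and 407 CPM (G2), and 8 of the 11 NEB cells lay above every G&T cell. Pooled levels of 43.7 CPM (39.6 to 48.1) in G&T, 26.6 (23.8 to 29.7) in Takara and 190 (181 to 200) in NEB put NEB 7.14-fold above Takara (6.32 to 8.10) and 4.36-fold above G&T (3.90 to 4.87). The differences of cell means, -165 CPM for Takara minus NEB and -145 CPM for G&T minus NEB, were larger in size than the NEB SD of 122. These directions hold for shares of the reads on genes and turn round per spike-in read, as given further on.

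The division of reads between ARID1A and ARID1B depended on the length used. Per kilobase of merged exons ARID1A took 62.7% in G&T, with 59.9% in Takara and 51.3% in NEB. ARID1B has 45931 bases of merged exons in the annotation but a longest transcript of 10813 bases, and with the longest transcript as length the ARID1A shares were 42.3%, 39.5% and 31.5%. As a mean of single cells the shares per kilobase of merged exons were 58.3%, 46.96% and 41.5%. NEB had the lowest ARID1A share in each case, but the order of Takara and NEB hung on single cells. Per kilobase of merged exons the Takara share was 51.8% without G1, and the NEB share was 54.65% without E2. Cells ran from 12.9% to 84.6% in G&T, from 0% to 89.1% in Takara and from 0% to 83.4% in NEB. All G&T cells had reads of both genes. In 2 Takara cells (C1, E2) and 2 NEB cells (B1, C2) ARID1B alone was read, and no cell had ARID1A alone.

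PBRM1 (ENSG00000163939; chromosome 3, 52545352 to 52685917, reverse strand) encodes the polybromo subunit of PBAF, which binds acetylated histones. G&T cells had 31.1, 60.0 and 187 CPM as lowest, median and highest values, and Takara cells 0, 26.1 and 84.8 CPM. NEB cells had 0, 6.40 and 62.3 CPM, with reads in 6 of 11 cells (54.5%, 23.4% to 83.3%). Pooled levels descended from 74.2 CPM in G&T (68.8 to 79.9) through 30.5 in Takara (27.4 to 33.8) to 14.8 in NEB (12.3 to 17.7). G&T exceeded NEB by 5.02-fold (4.12 to 6.15), with a difference in cell means of 64.0 CPM against a larger SD of 53.0. Takara over NEB was 2.06-fold (1.67 to 2.56), and with 1 CPM added its log2 ratio of 0.99 lay just under the doubling used for calls and was 1.45 without NEB cell D2, which held 34.7% of the PBRM1 reads in NEB.

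**Figure D2:**
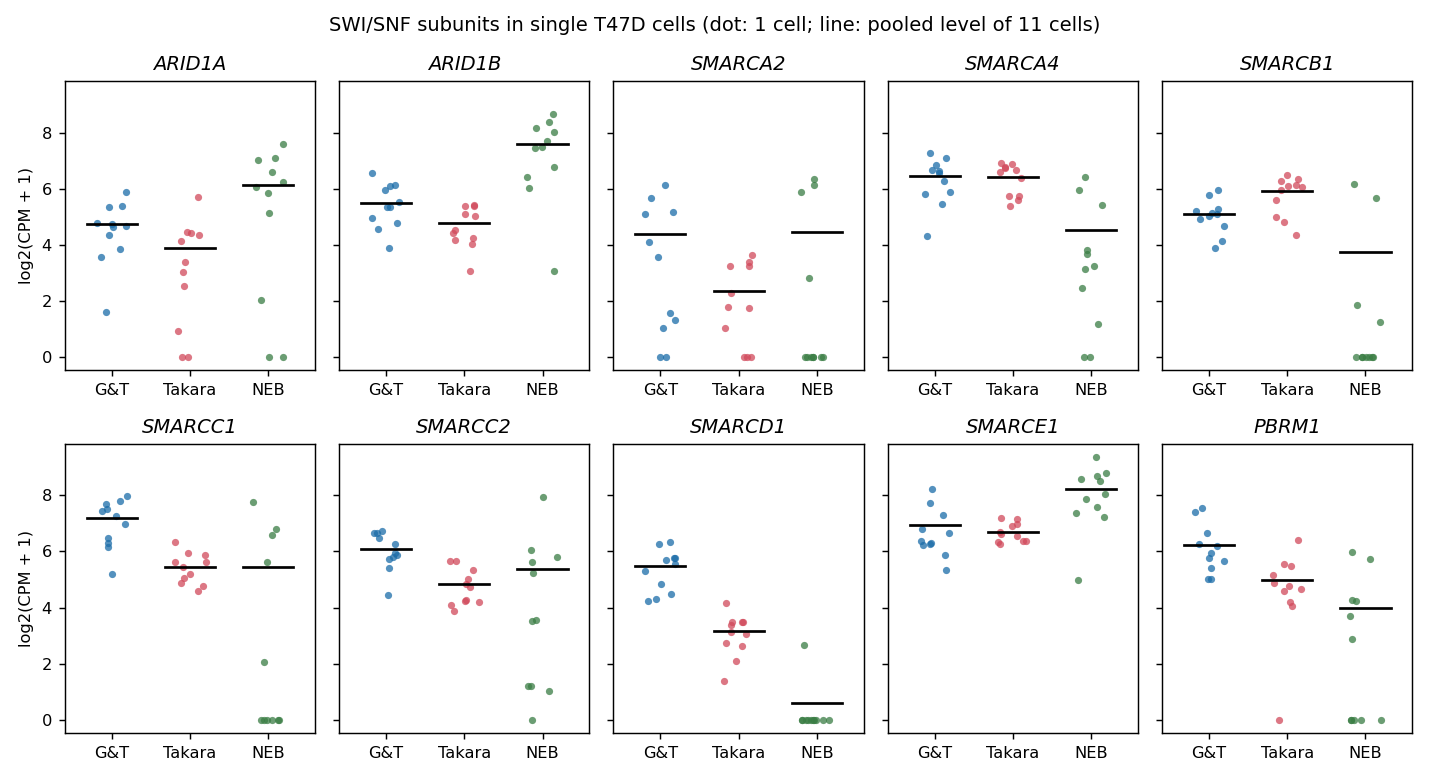
Level of each of the 10 genes as log2(CPM + 1) in the kept cells of G&T, Takara and NEB (11 dots each), with the pooled level as a black line. SMARCD1 is the gene whose G&T dots all lie above the Takara and NEB dots, and for SMARCA2, SMARCB1, SMARCC1, SMARCD1 and PBRM1 at least 5 NEB cells sit at 0.

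SMARCC1 (ENSG00000173473; chromosome 3, 47585269 to 47782106, reverse strand) and SMARCC2 (ENSG00000139613; chromosome 12, 56162359 to 56189567, reverse strand) encode the scaffold subunits around which the core assembles. SMARCC1 cells had 35.3, 152 and 253 CPM as lowest, median and highest values in G&T and 23.3, 42.5 and 79.2 CPM in Takara. The NEB median was 0, since reads came from 5 cells: E1 at 216, D2 at 111, C2 at 95.1, E2 at 48.7 and G2 at 3.20 CPM. Takara and NEB thus had nearly the same pooled level, 43.0 CPM (39.3 to 46.9) and 42.4 CPM (37.99 to 47.2), from 11 cells in the former and 5 in the latter. Without cell E1 the NEB level was 25.4 CPM. G&T stood at 143 CPM (136 to 151), which is 3.33-fold over Takara (3.00 to 3.70) and 3.38-fold over NEB (3.00 to 3.82), and both differences in cell means, 100.4 and 101 CPM, were larger than the larger SD of 70.0 and 70.6.

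SMARCC2 had reads in all G&T and Takara cells and in 10 NEB cells. G&T cells ran from 20.9 to 105 CPM (median 61.2) and Takara cells from 13.7 to 49.8 CPM (median 25.3). In NEB the median was 10.6 CPM but C1 reached 243 CPM and held 49.4% of the reads. The pooled NEB level of 40.4 CPM (36.1 to 45.0) fell to 22.3 without C1, which took the log2 ratio of G&T over NEB from 0.70 to 1.54 and turned that of Takara over NEB from -0.52 to 0.31. G&T (66.4 CPM pooled, 61.3 to 71.8) exceeded Takara (27.8, 24.9 to 31.0) by 2.39-fold (2.09 to 2.74), with a difference in cell means of 40.8 CPM against an SD of 26.9. Per kilobase of merged exons SMARCC1 took 72.2% of the reads of the pair in G&T, with 65.1% in Takara and 55.8% in NEB. The NEB majority depended on the choices made: SMARCC1 took 45.7% there with the longest transcript as length (63.3% in G&T, 55.3% in Takara), 37.7% as a mean of single cells, 44.6% without E1 and 71.4% without C1. In NEB, 5 cells had SMARCC2 alone, 5 had both, and B1 had neither. Between 38.9% and 87.9% of the pair's reads per kilobase were SMARCC1 in every G&T and Takara cell, while 9 of the 10 NEB cells with reads of either gene lay at or below 7.43% or at or above 92.6%, with E1 at 79.8%.

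**Figure D3:**
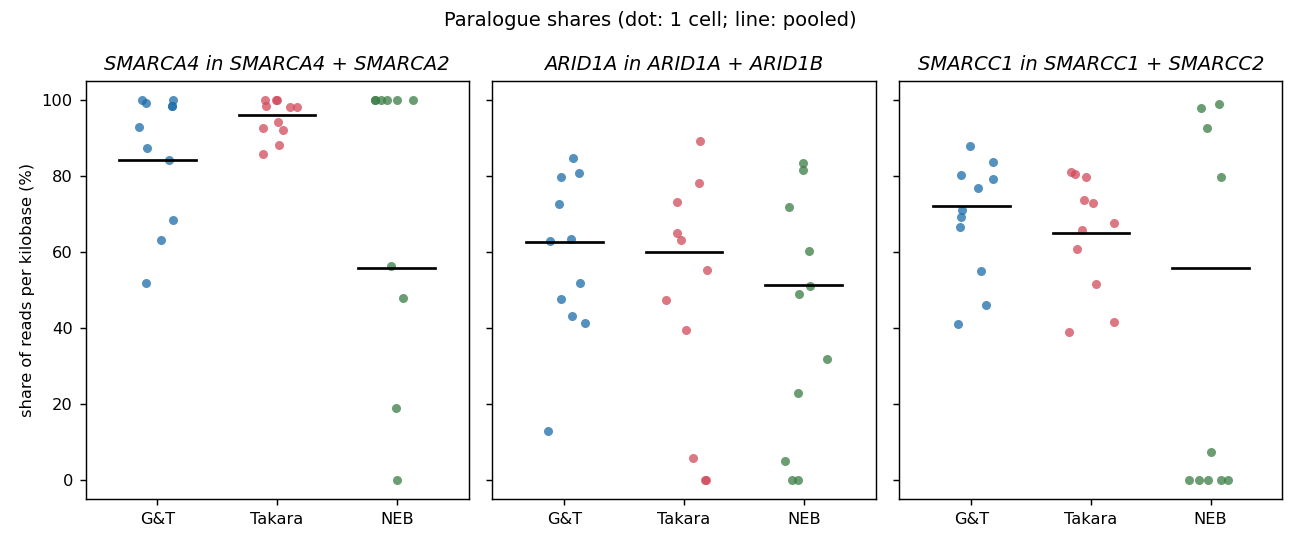
Share of reads per kilobase of merged exons given to the first of 2 paralogues, in percent, for each kept cell with reads of either gene (dots) and pooled (line). In the SMARCC1 panel, G&T and Takara cells lie between 38.9% and 87.9%, and all NEB cells but E1 lie at or below 7.43% or at or above 92.6%.

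SMARCD1 (ENSG00000066117; chromosome 12, 50085200 to 50100707, forward strand) encodes an accessory subunit that contacts transcription factors and nuclear receptors. It showed the widest gap between protocols among the 10 genes. G&T cells had 17.8, 45.6 and 80.7 CPM as lowest, median and highest values, and Takara cells had 1.58, 7.73 and 16.9 CPM. Every G&T cell was above every Takara cell. In NEB the gene had 4 reads, all in cell C2 (9.09% of cells, 0.230% to 41.3%), for a pooled 0.502 CPM (0.137 to 1.28), and the other 10 cells had no read. G&T at 43.2 CPM pooled (39.1 to 47.5) exceeded Takara at 7.94 CPM (6.41 to 9.72) by 5.44-fold (4.33 to 6.89) and NEB by 86.0-fold (33.4 to 317). The NEB level hangs on few reads: without C2 it is 0, and with the removed cells included it is 1.67 CPM against 42.3 in G&T, which takes the log2 ratio with 1 CPM added from 4.88 to 4.02. The Takara and NEB cells overlapped, since C2 of NEB, at 5.29 CPM, lay inside the Takara range.

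SMARCB1 (ENSG00000099956; chromosome 22, 23786931 to 23838009, forward strand) encodes the core subunit that anchors the complex to the nucleosome. In CPM it was the only member with a lower pooled level in G&T than in Takara (per ERCC read SMARCA4, SMARCE1, ARID1A and ARID1B were lower in G&T too), at 33.1 CPM (29.5 to 36.9) against 59.4 CPM (55.1 to 64.0). G&T cells ran from 13.7 to 61.7 CPM (median 33.4), Takara cells from 19.6 to 88.9 CPM (median 66.2), and the difference in cell means of -23.8 CPM was in size just over the Takara SD of 23.1. NEB cells had a median of 0. Reads were seen in A1 (70.5 CPM), D1 (49.8), C2 (2.64) and E1 (1.40), for a pooled 12.3 CPM (9.98 to 15.0) that was 7.13 CPM without D1. Takara exceeded NEB by 4.83-fold (3.91 to 6.03) and G&T exceeded NEB by 2.69-fold (2.14 to 3.41).

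SMARCE1 (ENSG00000073584; chromosome 17, 40624962 to 40648654, reverse strand) encodes an HMG-box subunit of the core that binds nucleosomal DNA, and like ARID1B it had reads in all kept cells. The lowest, median and highest values were 39.3, 82.6 and 298 CPM in G&T and 75.8, 97.1 and 144 CPM in Takara. NEB cells had 30.4 (D2), 263 and 660 CPM (E2), and 10 of them exceeded the highest Takara cell. Takara cells were the most even, with an SD of 25.2 CPM around a mean of 104 (n = 11), against 77.3 around 117 in G&T and 174 around 298 in NEB. Pooled, NEB reached 297 CPM (285 to 309), 2.88-fold over Takara at 103 CPM (2.68 to 3.09) and 2.44-fold over G&T at 122 CPM (2.27 to 2.62). Takara and G&T lay below NEB in cell means by more than the NEB SD (differences of -194 and -182 CPM), and both directions turn round per spike-in read.

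Calls between protocols were counted on the log2 ratio of pooled CPM with 1 CPM added, for genes with at least 100 reads in both protocols together, and a gene was called at a doubling or more. The comparisons share protocols with each other and are not independent. Between G&T and Takara, 5 of the 10 members were called higher in G&T (SMARCD1, SMARCA2, SMARCC1, PBRM1 and SMARCC2), where 18.3% of the 10091 genes were called in that direction, and 0 were called higher in Takara, where 19.5% of genes were. The members' median log2 ratio was 1.03 and that of all genes -0.08. Cells of G&T and Takara did not overlap for 1 member, SMARCD1, and for 2.78% of genes. The difference of cell means was larger than the larger SD for 4 members (SMARCB1, SMARCC1, SMARCC2 and SMARCD1) and for 25.9% of genes.

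Between Takara and NEB, 9 members could be counted, since SMARCD1 had under 100 reads in both together. SMARCA4 and SMARCB1, 2 of 9, were called higher in Takara, where 40.5% of the 9556 genes were. ARID1B, ARID1A, SMARCA2 and SMARCE1, 4 of 9, were called higher in NEB, where 24.0% of genes were. The members' median was -0.52, against 0.41 for all genes. No member had cells that did not overlap, against 13.8% of genes, and the difference of cell means passed the larger SD for ARID1B, SMARCA4, SMARCB1 and SMARCE1, 4 of 9, against 37.8% of genes. Between G&T and NEB, SMARCD1, PBRM1, SMARCA4, SMARCC1 and SMARCB1, 5 of 10, were called higher in G&T, where 38.6% of the 9386 genes were, and ARID1B, ARID1A and SMARCE1, 3 of 10, higher in NEB, where 22.2% of genes were. Here the medians were 1.03 and 0.36. Cells did not overlap for SMARCD1 and for 6.65% of genes, and the means differed by more than the larger SD for 6 members (ARID1B, SMARCA4, SMARCC1, SMARCD1, SMARCE1 and PBRM1) and for 28.3% of genes.

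These directions are relative to the reads on genes. Scaled per ERCC read, the median log2 ratio of all genes moved to -1.01 for G&T over Takara, 3.41 for Takara over NEB and 2.51 for G&T over NEB, and of all genes 4.29% were then called higher and 50.3% lower in G&T than in Takara, 93.1% higher and 0.617% lower in Takara than in NEB, and 86.1% higher and 0.948% lower in G&T than in NEB. The 10 genes had 34.0 reads per 1000 ERCC reads in G&T, with 41.4 in Takara and 5.42 in NEB. ARID1B had 2.26, 2.75 and 1.45, and SMARCE1 had 6.29, 10.6 and 2.27, so that on this scale NEB was lowest for both. SMARCA4 had 4.48, 8.72 and 0.167. This scaling multiplies all genes of a protocol by 1 factor, so ratios relative to the median of all genes are the same as in CPM by construction, apart from the added 1 CPM. Some members differed from that median by a doubling or more. In G&T over Takara SMARCA2, SMARCC1, SMARCC2, SMARCD1 and PBRM1 lay above it. In Takara over NEB SMARCA4 and SMARCB1 lay above it and ARID1A, ARID1B, SMARCA2 and SMARCE1 below. In G&T over NEB SMARCA4, SMARCC1, SMARCD1 and PBRM1 lay above it and ARID1A, ARID1B and SMARCE1 below. The share of all genes past this limit was not counted, so these lists do not set the members apart from other genes.

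**Figure D4:**
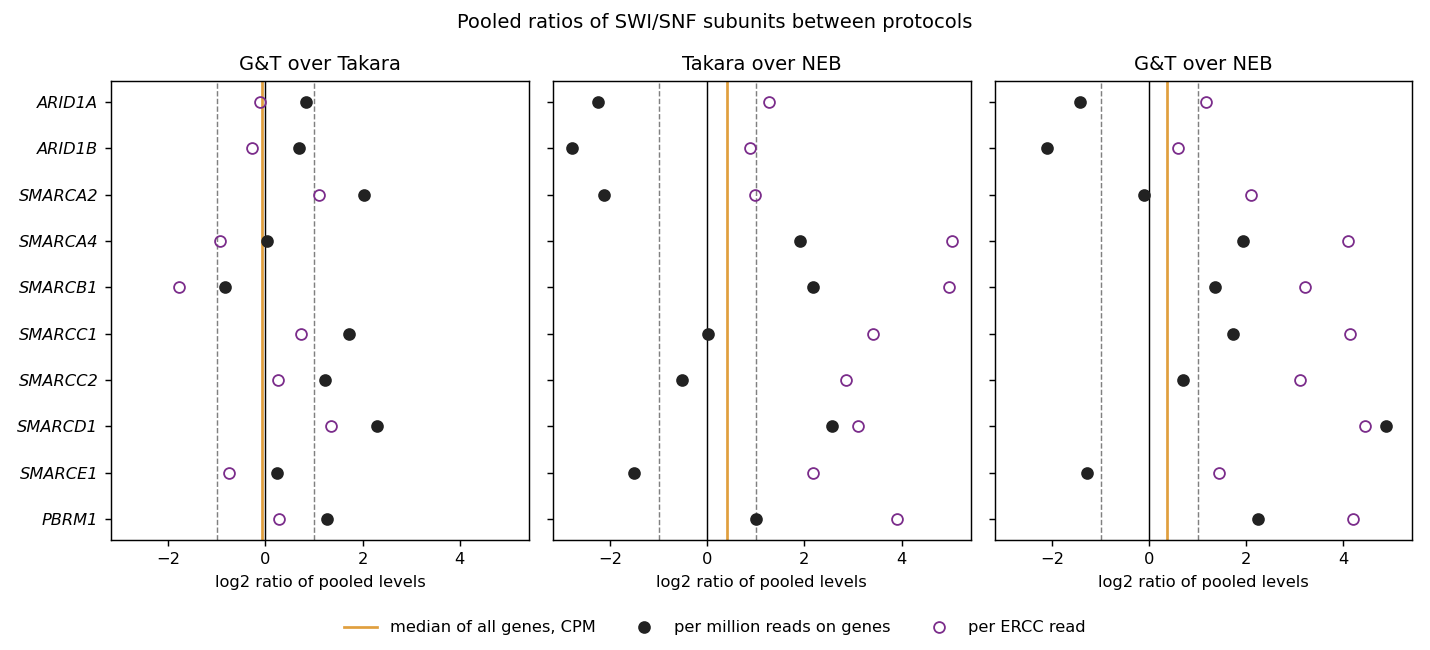
Log2 ratio of pooled levels of each gene for the 3 pairs of protocols, as CPM with 1 CPM added (filled) and per ERCC read (open), with dashed lines at a doubling and the median of all genes in CPM in orange. For Takara over NEB, ARID1A, ARID1B, SMARCA2, SMARCC2 and SMARCE1 lie left of 0 when filled and right of it when open, and for G&T over NEB the same holds for ARID1A, ARID1B, SMARCA2 and SMARCE1.

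Levels of different genes were compared per kilobase of merged exons. In G&T SMARCC1 led with 18.8 CPM per kilobase, above SMARCD1 at 8.80 by more than the larger SD over cells, and PBRM1 (7.69), SMARCC2 (7.24), SMARCE1 (6.58) and SMARCA4 (5.56) followed without a gap over the spread. A gap over the spread then set SMARCA4 apart from SMARCB1 (2.00), with ARID1A (1.60), SMARCA2 (1.04) and ARID1B (0.951) behind it. In Takara SMARCC1 (5.64), SMARCE1 (5.58) and SMARCA4 (5.43) were together at the top, and the neighbours differed by more than their spread only at the end of the order, between ARID1B (0.580) and SMARCA2 (0.215). In NEB SMARCE1 at 16.1 lay above SMARCC1 (5.56) by more than the larger SD, followed by SMARCC2 (4.40), ARID1A (4.37) and ARID1B (4.14), and SMARCD1 (0.102) closed the order. SMARCE1 was first in NEB under each of the lengths tried, but with the longest transcript its gap of 17.4 CPM per kilobase to ARID1B, the next gene, stayed under the larger SD of 20.6. In the other protocols the first place depended on the length: with the longest transcript SMARCC1 stayed first in G&T (22.6) and SMARCA4 was first in Takara (14.6), and with the canonical transcript SMARCE1 was first in both (23.6 and 20.02). The gaps in these protocols depended on the length too. With the longest or the canonical transcript no neighbours in G&T differed by more than the larger SD. In Takara the only such gap then lay between SMARCB1 (11.4) and SMARCC1 (6.77).

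Reads of a member in a cell were found in 108 of 110 combinations of member and cell in G&T (98.2%), with 104 in Takara (94.5%) and 70 in NEB (63.6%). Thinning all cells to the 624772 reads of the smallest kept cell left 107, 103 and 68.9 expected combinations, and asking for 5 reads left 104, 98 and 58. For the 10492 genes with at least 100 reads in any pair of protocols the percentages with at least 1 read were 86.6, 89.7 and 45.6. All 10 members were read together in 9 G&T, 6 Takara and 0 NEB cells. NEB cells had reads of 3 (B1) to 9 members (C2), with a median of 6. In NEB only ARID1B and SMARCE1 were present in every cell. Among NEB cells with reads, the median level of the other genes ran from 95.1 CPM for SMARCC1 (5 cells) to 5.29 CPM for SMARCD1 (1 cell). Between them lay ARID1A (74.2 CPM, 9 cells), SMARCA2 (63.4, 4 cells) and SMARCB1 (26.2, 4 cells). Next came SMARCC2 (23.8 CPM, 10 cells), PBRM1 (18.05, 6 cells) and SMARCA4 (11.8, 9 cells).

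A further 20 SWI/SNF genes, with beta-actin left out, were read as a list. In G&T 12 of them were present in every cell, in Takara 10 and in NEB 2, and 2, 4 and 5 had no read in any cell. BCL11A and DPF3, subunits known from blood, neural or muscle cells, had no read in any protocol, which allows up to 0.316 CPM in G&T, with 0.256 in Takara and 0.376 in NEB. Highest per length in Takara was ACTL6A, an actin-related core subunit, at 197 CPM in G&T, with 480 in Takara and 441 in NEB, followed by BCL7B (41.8, 86.1 and 8.15 CPM) and DPF2 (76.6, 169 and 16.2 CPM), a histone reader of canonical BAF. ARID2, the ARID subunit of PBAF, had 67.8 CPM in G&T (62.7 to 73.2), with 40.7 in Takara (37.1 to 44.5) and 600 in NEB (583 to 618), with reads in all 33 cells. Its partner in PBAF, PBRM1, was lowest in NEB. BCL7C had 133 reads in G&T, with 402 in Takara (34.3 CPM) and 4 in NEB (0.502 CPM). BRD7, a bromodomain subunit of PBAF, had 81.8, 16.0 and 101 CPM, and SS18L1 had 37.2, 10.8 and 24.6 CPM. Of the 12 list genes with enough reads, 4 were called higher and 4 lower in G&T than in Takara, beside 18.3% and 19.5% of all genes. Between Takara and NEB 6 were higher and 3 lower in Takara, beside 40.5% and 24.0%, and between G&T and NEB 6 were higher and 2 lower in G&T, beside 38.6% and 22.2%. Their median log2 ratios were 0.23, 0.94 and 1.36. Per ERCC read the all-gene shift given above applies to them too.

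Among 19 ATPases and partners of other remodelling families the median log2 ratios were 1.37 for G&T over Takara, -1.29 for Takara over NEB and 0.09 for G&T over NEB, with 12 of 19 called higher and 0 lower in the first (18.3% and 19.5% of all genes), 4 of 18 higher and 11 lower in the second (40.5% and 24.0%), and 7 of 19 higher and 5 lower in the third (38.6% and 22.2%). For the 11 genes of the Polycomb complex PRC2 the medians were -0.27, -0.67 and -0.19, with 3, 4 and 3 called higher and 2, 3 and 4 lower in the same 3 comparisons. No difference between these lists and the 10 genes was tested.

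The 10 genes were also set against 2 features of their canonical transcripts. Across 9513 genes, the log2 ratio of Takara over NEB had a Spearman rho of 0.65 with GC content and -0.28 with length, as a description over genes that share the same libraries and are not independent. Over the 10 members rho was 0.08 with GC content and -0.61 with length. These 2 values include SMARCD1, which had under 100 reads in this pair, while the values over all genes leave such genes out. SMARCD1 had the shortest canonical transcript (3283 bases) and the highest log2 ratio (2.57) of the members, so the rho with length leans on it. ARID1A (57.5% GC), ARID1B (53.6%) and SMARCE1 (42.0%) were the ones called higher in NEB than in both other protocols. PBRM1 (41.8%), SMARCC1 (46.5%), SMARCD1 (53.4%), SMARCB1 (59.6%) and SMARCA4 (60.6%) had a lower pooled level in NEB than in both, whether called or not. The GC ranges of both sets overlapped, and the part of GC content in these directions was not tested. For G&T over Takara rho with GC content was -0.17 over 10057 genes and -0.56 over the members. The members called higher in G&T were PBRM1 (41.8%), SMARCC1 (46.5%), SMARCA2 (48.8%), SMARCD1 (53.4%) and SMARCC2 (53.4%). The members not called ran from 42.0% (SMARCE1) to 60.6% (SMARCA4).

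Some exons of the members overlap other genes, and the strand column behind the counts is not stated, so reads there may be shared or dropped. DERL3, on the other strand, covers 17.7% of the merged exons of SMARCB1 and stood at 1.47, 1.19 and 4.77 CPM in G&T, Takara and NEB. MYL6, on the other strand, covers 7.83% of the SMARCC2 exons at 1756, 1966 and 2193 CPM. A same-strand gene, ENSG00000264058, covers 18.9% of the SMARCE1 exons and had no read. Other overlaps took at most 3.38% of a member's exons. The part of these overlaps in the levels was not tested.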

How the data were processed

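Single T47D cells were sequenced with G&T, Takara and NEB. The authors trimmed the reads with Trim Galore, used STAR to align them to GRCh38 and deposited its raw read counts per gene, 1 table per protocol, without normalization or filters. The annotation release and strand column are not given in the sources used here. The tables list 60279 genes beside 92 ERCC RNAs, and the 4 rows of unassigned reads stayed out of all totals.

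The 10 genes, the lists and the named genes were chosen with earlier results of these data known. Named are all 10 members and, of 20 other subunits, the 2 with the largest absolute ratio per pair of protocols, the 3 highest per length in Takara and those with no read. Cells were kept by the 4 quality thresholds of the study, and sorted single cells got no doublet caller. No 2 kept cells had equal reads in more than 3.01% of the genes with reads in either.

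Levels are CPM of reads on genes (pooled over 11 cells), log2 ratios use 1 CPM added, and a count of 0 allows 3 reads. Lengths, overlaps and sequences came from GENCODE 44, which lacked 4175 listed genes and may not be the authors' release. Tables were handled with pandas 2.3.3 and numpy 2.4.6 under Python 3.11.15, intervals came from scipy 1.17.1, and figures from matplotlib 3.10.9. TMM factors only came from edgeR 4.0.16 in R 4.3.3. Calls at a doubling were tested on simulated pooled counts without spread between cells, and thinning on random draws from a single NEB cell. The other steps had no such test. Alternatives covered the cells kept, denominators, scaling, pooling, pseudocount, fold, filter, detection, depth and length.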

Additional observations from a re-analysis of the deposited data

Results flagged for a closer look

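Cells that the quality thresholds removed still held reads of the 10 genes above the limit that a count of 0 allows. G&T cell C2, with 33.7% mitochondrial reads, had 260 reads on 8 of them, most on SMARCE1 (73). G&T cell F1, with a library of 596867 reads, had 505 reads on all 10, most on SMARCA4 (127). NEB cell B2, with 28.4% ERCC reads, had 336 reads on 3 members, of which 247 were on ARID1B. NEB cell F2, with a library of 584698 reads, had 554 reads on 9 members, most on SMARCE1 (252). The other removed cells, Takara C2 and F1 and NEB F1, had 0, 1 and 0 reads.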

How the results depend on the processing

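Summed and single pooled levels moved by less than the SD over cells with all 40 cells, with ERCC reads in the denominator, without mitochondrial genes and as a mean of single cells. The planned level per 1000 ERCC reads is in another unit and enters through the ratios. Per ERCC read, 2 members were called higher in G&T than in Takara and 1 lower (4.29% and 50.3% of all genes). In Takara over NEB 7 were called higher and 0 lower (93.1% and 0.617%). In G&T over NEB 9 were called higher and 0 lower (86.1% and 0.948%). The log2 ratios of Takara over NEB reversed to 1.27 for ARID1A, 0.87 for ARID1B, 0.99 for SMARCA2 and 2.18 for SMARCE1, and those of G&T over NEB to 1.16 for ARID1A, 0.60 for ARID1B and 1.43 for SMARCE1. This scaling multiplies all genes of a protocol by 1 factor. With a limit of 3-fold, 3 members were called higher and 0 lower in G&T than in Takara (8.06% and 6.58% of all genes), 2 higher and 3 lower in Takara than in NEB (32.5% and 14.9%), and 4 higher and 1 lower in G&T than in NEB (30.1% and 12.9%). The ARID1A share in G&T was 36.8% for reads without length. Leaving out each cell in turn gave 5 to 6 members called higher in G&T than in Takara, 2 to 3 in Takara than in NEB, 4 in NEB than in Takara, 5 to 6 in G&T than in NEB and 3 in NEB than in G&T. With all kept cells, the shares of all genes called in these directions were 18.3%, 40.5%, 24.0%, 38.6% and 22.2%. Summed levels with each cell left out were 639 to 676 CPM in G&T, 391 to 408 in Takara and 668 to 757 in NEB. PBRM1 was called higher in Takara than in NEB at log2 ratios of 1.15 with ERCC reads in the denominator, 1.01 without mitochondrial genes and 1.04 with 0.1 CPM added. TMM scaling changed no call. The longest transcript for shares, the canonical transcript and the ratio relative to the median of all genes were chosen after seeing the data. No paired analysis was possible because the cells are not paired and no test was made. With 11 cells from 1 run per protocol, differences between protocols carry no replicate error, and levels near 0.376 CPM in NEB are at the limit of depth.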

Other observations

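Single cells stood apart for several of the 10 genes at once. Among the kept G&T cells, H1 had the highest SMARCE1 level, 298 CPM, together with the lowest SMARCA4 (18.7), SMARCC1 (35.3) and PBRM1 (31.1) levels and no SMARCA2 read, and it had the fewest genes of them (9541). NEB cell B1 had reads of SMARCE1, SMARCA4 and ARID1B alone and the lowest summed level of the kept NEB cells, 208 CPM. NEB cell C1, with the fewest genes of the kept NEB cells (4416), had reads of 4 members, SMARCE1 (409 CPM), ARID1B (259), SMARCC2 (243) and ARID1A (136), for a sum of 1047 CPM.

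Within a protocol the number of genes with reads and the summed level of the 10 genes, which share a cell's depth, had a Pearson r of 0.351 in G&T, with -0.0856 in Takara and -0.356 in NEB (Spearman rho 0.391, -0.173 and -0.427, n = 11 cells each). Without the 2 cells farthest from the median these r were 0.309, -0.228 and -0.121.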
